A study of Homo sapiens with 8 samples.

Results

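The genes AADAC, BAAT, CUBN, PC, PROX1 and ATF5, which have known roles in liver or epithelial cells, were followed across 2 human liver cell lines treated with CM272. They were taken by gene symbol from the platform annotation, and were selected on the difference between LX2 with CM272 and LX2 control, in which each was higher with CM272. All 6 were on the array, each with 1 probe set, out of 14884 gene symbols measured. Gene expression was read on Affymetrix whole-transcript arrays, 1 array per sample, as log2 expression values. LX2 is a line of human hepatic stellate cells and HepG2 a human hepatoma line. The 4 groups, with 2 arrays in each, were LX2 control (0.1% DMSO, 48 h, 2% serum), LX2 CM272 (400 nM, 48 h, 2% serum), HepG2 control (0.1% DMSO, 48 h, 10% serum) and HepG2 CM272 (400 nM, 48 h, 10% serum). CM272 blocks G9a, a histone methyltransferase, together with DNMT1, a DNA methyltransferase. No allele or transgene is named for any group, and each of both models is a single cell line. Because serum went with the line, a difference between the lines cannot be told apart from a difference in serum.

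The genes encode enzymes, a receptor and transcription factors. AADAC, arylacetamide deacetylase, is an esterase of the endoplasmic reticulum that hydrolyses drugs and is abundant in hepatocytes. BAAT couples bile acids to glycine or taurine, the last step before they are secreted into bile. PC, pyruvate carboxylase, is a mitochondrial biotin enzyme that makes oxaloacetate from pyruvate and so feeds gluconeogenesis and the citric acid cycle. CUBN, cubilin, is an endocytic receptor of the ileum and the kidney proximal tubule that takes up vitamin B12 bound to intrinsic factor, and albumin. PROX1 is a homeobox factor of liver progenitors and hepatocytes and the factor that sets lymphatic endothelial identity. ATF5 is a leucine zipper factor, abundant in liver, that takes part in amino acid and mitochondrial stress responses.

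The 6 genes did not stand at one common level relative to HepG2. In the values as deposited, LX2 with CM272 stood above the untreated HepG2 level for PC and ATF5 and for AADAC, which was dim in HepG2. So did 64.3% of all tested genes. After quantile normalization over the 8 arrays PC stood 0.22 (SE 0.16) and AADAC 0.33 (SE 0.20) above it. In the deposited values LX2 with CM272 came close to the untreated HepG2 level for BAAT (-0.17, but -0.47 after quantile normalization). It stayed far below that level for PROX1. CUBN was already higher in untreated LX2 than in untreated HepG2 and moved further away. Both LX2 control arrays lay below both HepG2 control arrays for AADAC, BAAT, PC and PROX1 (4 of 6, against 27.6% of tested genes) and above both for CUBN (1 of 6, against 55.8%), and ATF5 overlapped. The LX2 control arrays took part in choosing the genes, so nothing is read from these counts. The levels use the same control arrays and are description only. A liver-type label goes against the values of CUBN and is not borne out by the deposited values of ATF5. HepG2 control minus LX2 control was 0.0039 for ATF5, and 0.29 after quantile normalization. For PC it was 0.30 (interval -0.039 to 0.64), and 0.56 after quantile normalization, so PC does not settle the label. AADAC was dim in HepG2 control (3.65 and 3.56). BAAT and PROX1 stood higher in HepG2 control, by 1.09 and 4.14. In HepG2 itself CM272 gave no change past the adjusted threshold in any of the 6 (0 of 6 in limma). Only 1 of 12239 tested genes passed there, so that 0 of 6 is the usual outcome. At an unadjusted p under 0.05 in limma there were 2 of 6, AADAC upward and ATF5 downward, against 11.5% of tested genes. AADAC was tested only because its HepG2 CM272 arrays passed the brightness filter, so nothing is read from this count.

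The 2 LX2 CM272 arrays stood further apart than the arrays of the other groups. Their median absolute difference over all gene symbols was 0.26 log2, against 0.13 in LX2 control, 0.15 in HepG2 control and 0.16 in HepG2 CM272, and 269 symbols differed by more than log2 1 between them. The highest array median was that of LX2 CM272 replicate 1 (4.54, against 4.19 to 4.45 for the other 7 arrays). The labelled cell types were set against marker genes. ALB, albumin, read 13.2 on both HepG2 control arrays and 3.52 and 3.65 on the LX2 control arrays, and VIM, the mesenchymal filament vimentin, read 10.2 on both LX2 control arrays and 3.73 and 3.60 in HepG2 control. Whether replicate arrays came from separate cultures is not in the labels, so the p-values speak of the spread among these arrays, which may be technical.

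The stretches upstream of the genes differ in the number of CpG dinucleotides, the letters that DNMT1 keeps methylated, and are printed to show that contrast. RefSeq start sites (GRCh38.p14) were found for 5 of the 6 genes, 10 sites in all. The 250 bases before a start are given 5′ to 3′ on the strand of the gene, with each CpG in capitals. For BAAT the first of the start sites is shown, and for PC and ATF5 the one with the most CpG.
AADAC, chr3:151813866-151814115, plus strand: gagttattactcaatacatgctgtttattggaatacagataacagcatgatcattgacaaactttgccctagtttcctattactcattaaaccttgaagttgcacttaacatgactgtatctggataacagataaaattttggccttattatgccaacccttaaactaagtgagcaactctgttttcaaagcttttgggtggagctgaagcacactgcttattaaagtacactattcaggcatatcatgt
BAAT, chr9:101383874-101384123, minus strand: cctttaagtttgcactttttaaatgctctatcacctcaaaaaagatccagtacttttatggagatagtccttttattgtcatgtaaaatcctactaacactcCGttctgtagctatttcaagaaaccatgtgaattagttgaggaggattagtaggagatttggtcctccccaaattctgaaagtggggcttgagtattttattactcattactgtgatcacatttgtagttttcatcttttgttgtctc
CUBN, chr10:17129812-17130061, minus strand: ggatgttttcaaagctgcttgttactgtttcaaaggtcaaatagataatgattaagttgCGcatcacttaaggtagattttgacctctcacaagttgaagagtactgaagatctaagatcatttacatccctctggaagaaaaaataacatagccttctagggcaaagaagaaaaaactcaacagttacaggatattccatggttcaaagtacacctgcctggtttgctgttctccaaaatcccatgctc
PC, chr11:66958384-66958633, minus strand: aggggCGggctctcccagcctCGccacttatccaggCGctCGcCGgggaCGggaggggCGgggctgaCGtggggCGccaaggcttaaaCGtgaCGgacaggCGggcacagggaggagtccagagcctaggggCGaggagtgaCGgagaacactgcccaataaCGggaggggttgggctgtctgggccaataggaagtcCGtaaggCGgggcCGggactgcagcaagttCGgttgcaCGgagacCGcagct
ATF5, chr19:49928955-49929204, plus strand: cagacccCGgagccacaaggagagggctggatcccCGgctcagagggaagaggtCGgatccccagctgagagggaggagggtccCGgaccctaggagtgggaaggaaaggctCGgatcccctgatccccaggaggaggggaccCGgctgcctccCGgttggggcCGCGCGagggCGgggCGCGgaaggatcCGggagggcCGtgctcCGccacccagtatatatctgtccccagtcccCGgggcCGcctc

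The AADAC stretch held 0 CpG, those of CUBN and of both BAAT starts 1 each, the PC stretch 21 and the ATF5 stretch 18. The other starts of PC had 4 and 8, and the other starts of ATF5 had 3 and 13. Over 35116 such stretches of all RefSeq starts the median was 11 (quartiles 3 and 23). The GC content was 35.6% for AADAC, 35.2% for the first BAAT start, 38.0% for CUBN, 67.6% for PC and 70.8% for ATF5, against a median of 58.0%. AADAC, BAAT and CUBN thus lay under the lower quartile, while the PC and ATF5 starts lay between 3 and 21, at or inside the quartiles. Which start the LX2 cells use, and whether any CpG was methylated, was not measured.

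**Figure D1:**
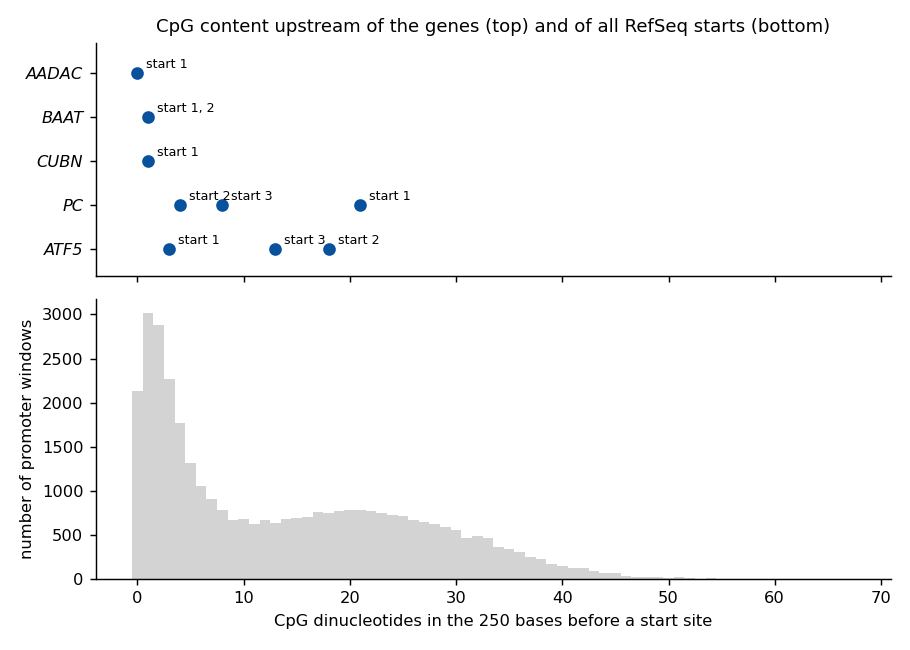
Number of CpG dinucleotides in the 250 bases before each RefSeq start site of 5 genes (top, 1 point per start or per group of starts with the same number, numbered in the direction of transcription) and the distribution over 35116 starts (bottom, bars count starts). AADAC, BAAT and CUBN lie at 0 or 1, and the starts of PC and ATF5 spread from 3 to 21.

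The same stretches were searched for motifs on both strands. The HNF1 consensus, the HNF4 direct repeat, the ATF4 response element TGATGNAA and the cyclic AMP element TGACGTCA matched none of the 10. They matched 0.0057%, 0.0171%, 3.14% and 1.65% of all stretches, so that no match is the usual outcome. The TATA box letters TATAAA matched the second BAAT start once and none of the other 9, against 10.7% of all stretches.

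**Figure D2:**
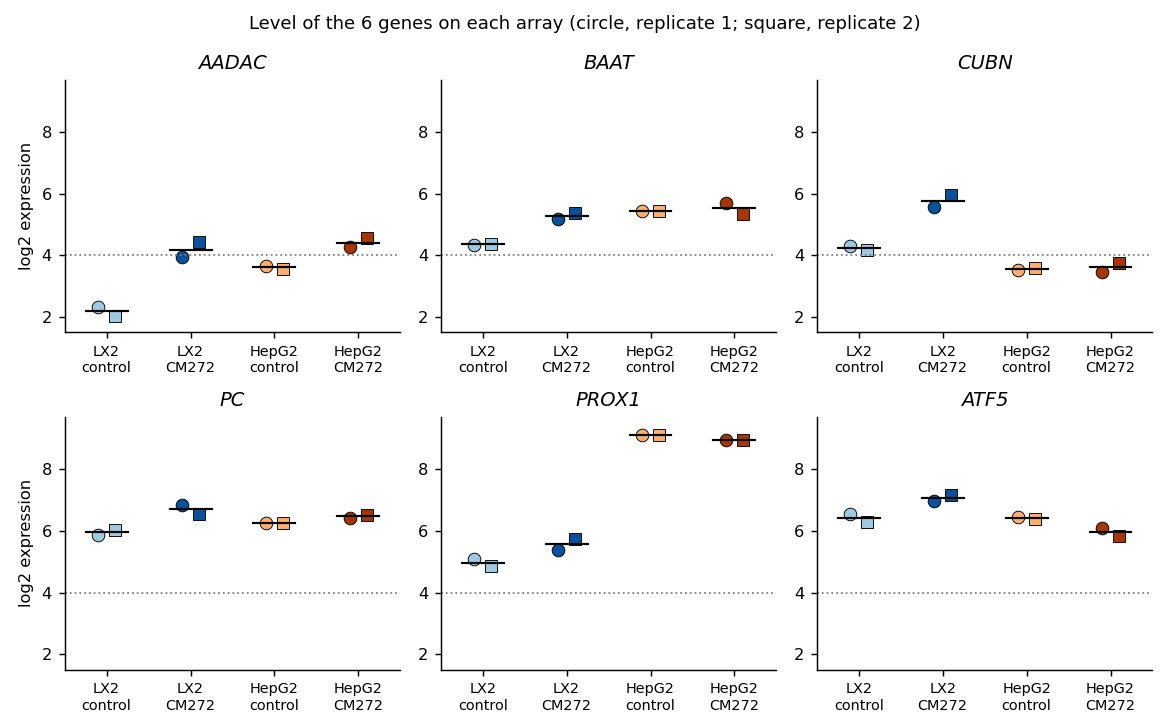
Log2 expression of each gene on each of the 8 arrays (circles, replicate 1; squares, replicate 2; bars, group means; dotted line, the log2 4 brightness filter). In LX2 both CM272 arrays lie above both control arrays for all 6 genes, and PROX1 is the gene for which both lines differ most.

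How LX2 with CM272 compared with LX2 control is given as a description, since this difference chose the genes. Both CM272 arrays lay above both control arrays for 6 of 6 genes, a pattern shared by 23.5% of the 12239 genes tested. Across those genes limma called 464 (3.79%) higher and 567 (4.63%) lower in LX2 with CM272. With 1 array left out these counts ran from 50 (without LX2 control replicate 2) to 928 (without LX2 CM272 replicate 2) and from 5 to 1568, so the share called depends on single arrays. The differences of the 6 had a median of 0.83 log2, between 0.60 for PROX1 and 2.00 for AADAC, against a median of -0.02 over all tested genes.

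Among the enzymes, AADAC (probe set 16947045) showed the largest difference. Its LX2 control arrays read 2.33 and 2.04, and its LX2 CM272 arrays 3.96 and 4.42, all on the log2 scale. The groups were far apart, but 3 of these 4 values lay below the log2 4 that served as the brightness filter. The difference was 2.00 (SE 0.19), or 4.01-fold. As the control level lies at the dim end, neither is exact. AADAC passed the filter through the HepG2 CM272 group alone.

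AADAC also has a pseudogene copy next to it, AADACP1, the nearest measured gene on one side. AADACP1 read 2.17 and 1.90 in LX2 control and 3.07 and 4.56 in LX2 CM272, too dim to be tested, with both CM272 arrays above both controls. In HepG2 it stayed between 2.42 and 2.88, where AADAC read 3.56 to 4.55. How far the probes of one detect the other was not tested. On the other side, SUCNR1, the succinate receptor, was dim on all 8 arrays (1.94 to 2.59). It read 2.59 and 2.26 in LX2 CM272 and 2.06 and 2.22 in LX2 control.

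BAAT (probe set 17096623) read 4.34 and 4.37 in LX2 control and 5.19 and 5.36 in LX2 CM272. The arrays of each group lay close together and the groups did not overlap. The difference was 0.92 (SE 0.16), or 1.89-fold. Its nearest measured neighbours in the genome did not pass limma in LX2. MRPL50, a mitochondrial ribosomal protein, was at 0.39 (SE 0.14, adjusted p = 0.112) and PLPPR1 at 0.34 (SE 0.20, adjusted p = 0.333). Both had their CM272 arrays above their control arrays, as did 23.5% of tested genes.

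PC (probe set 16740914) read 5.86 and 6.05 in LX2 control and 6.85 and 6.56 in LX2 CM272. Replicate 1 was the higher of the CM272 arrays here, while for the other 5 genes replicate 2 was. The difference was 0.75 (SE 0.15), or 1.68-fold. Of its neighbours, TOP6BL, a meiotic recombination gene, fell in LX2 (-0.57, SE 0.14, limma adjusted p = 0.038), and LRFN4 did not pass (-0.15, SE 0.17, adjusted p = 0.64).

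CUBN (probe set 16712168), the receptor, read 4.32 and 4.17 in LX2 control and 5.56 and 5.97 in LX2 CM272. The difference was 1.52 (SE 0.17), or 2.87-fold. Its neighbour TRDMT1, a tRNA methyltransferase of the DNMT family, was at 0.64 (SE 0.20, limma adjusted p = 0.0787). Both its CM272 arrays (5.13 and 5.64) lay above both controls (4.59 and 4.89), as for 23.5% of tested genes. RSU1, on the other side, was at 0.02 (SE 0.14, adjusted p = 0.95).

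Of the transcription factors, PROX1 (probe set 16677391) read 5.08 and 4.87 in LX2 control and 5.39 and 5.76 in LX2 CM272. The difference was 0.60 (SE 0.16), or 1.51-fold, the smallest of the 6. Leaving out LX2 CM272 replicate 1 gave 0.78, and leaving out replicate 2 gave 0.42. ATF5 (probe set 16864393) read 6.55 and 6.30 in LX2 control and 6.98 and 7.19 in LX2 CM272, a difference of 0.66 (SE 0.16), or 1.58-fold. The measured neighbours of these genes did not pass limma in LX2, with SMYD2 at -0.22 (adjusted p = 0.425) and ANGEL2 at -0.13 (adjusted p = 0.73) beside PROX1, and IL4I1 at 0.0072 (adjusted p = 0.984) beside ATF5. SMYD2 read lower on both CM272 arrays (7.68 and 8.03) than on both controls (8.10 and 8.05). SIGLEC11, also beside ATF5, was too dim to be tested, with both CM272 arrays (3.64 and 3.63) above both controls (3.08 and 3.09).

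Whether the same genes respond to CM272 in HepG2 was tested on differences between HepG2 arrays. The genes were not selected on these differences, but they were chosen with earlier results of these data known. AADAC also passed the brightness filter through the HepG2 CM272 arrays alone. The spread was estimated over all 4 groups together, so the LX2 arrays that chose the genes enter each SE and p-value. With HepG2 fitted alone 0 of the 6 passed, and 0 genes higher and 0 lower over all genes. In HepG2 1 of 12239 genes passed limma with Benjamini-Hochberg adjustment (0.00817%), C5AR1, the complement C5a receptor, which fell (0 genes passed when any HepG2 array or LX2 control array was dropped). None of the 6 genes did (0 of 6). At an unadjusted p under 0.05 in limma there were 2 of 6 (AADAC upward, ATF5 downward), against 11.5% of all tested genes. Both HepG2 CM272 arrays lay above both controls for AADAC and PC, as for 20.7% of tested genes, and below both for PROX1 and ATF5, as for 28.2%.

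AADAC read 3.65 and 3.56 in HepG2 control and 4.27 and 4.55 in HepG2 CM272. Its difference of 0.81 (SE 0.19, 95% interval 0.38 to 1.24 without adjustment) had an adjusted p = 0.231 in limma, and the adjusted p ran from 0.0811 to 0.818 over the alternative settings. AADAC was tested only because its HepG2 CM272 arrays passed the brightness filter, so that its test is not independent of its level there (adjusted p = 0.296 with no filter). PC read 6.25 and 6.27 in control and 6.43 and 6.52 with CM272, a difference of 0.22 (95% interval -0.12 to 0.56, adjusted p = 0.63 in limma).

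ATF5 went the other way in HepG2. It read 6.46 and 6.39 in control and 6.11 and 5.83 with CM272, a difference of -0.46 (SE 0.16, 95% interval -0.82 to -0.0965 without adjustment) with an adjusted p = 0.341 in limma (0.159 to 0.861 over the alternatives). PROX1 read 9.11 and 9.12 in control and 8.97 and 8.96 with CM272, a difference of -0.15 (95% interval -0.51 to 0.21, adjusted p = 0.789 in limma).

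BAAT and CUBN overlapped between the HepG2 groups. BAAT read 5.45 on both control arrays and 5.71 and 5.35 with CM272, and the difference was 0.08 (95% interval -0.27 to 0.43, adjusted p = 0.896 in limma). CUBN read 3.53 and 3.58 in control and 3.48 and 3.75 with CM272, all below the brightness filter, with a difference of 0.06 (95% interval -0.33 to 0.45, adjusted p = 0.938 in limma).

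**Figure D3:**
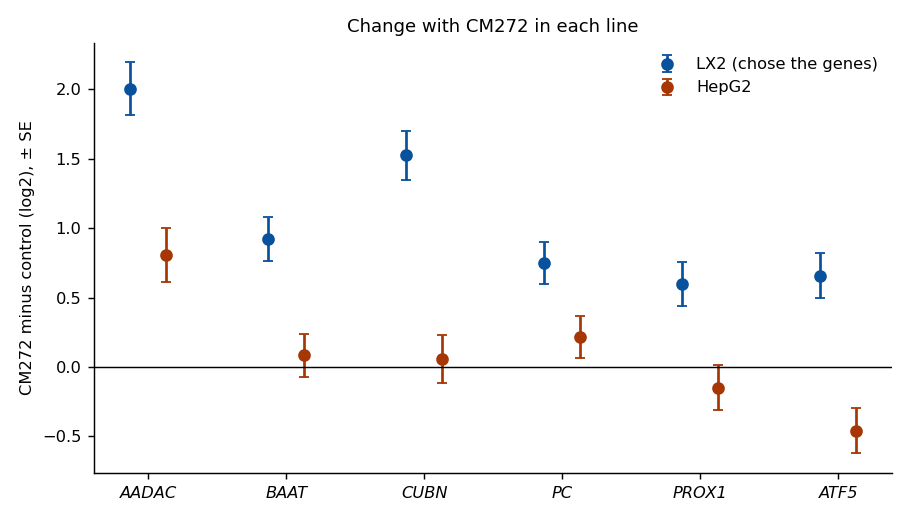
Difference between CM272 and control on the log2 scale for each gene in LX2 and HepG2 (points, limma estimates; bars, ± 1 SE; 2 arrays per group). The LX2 points, which chose the genes, run from 0.60 to 2.00, and the HepG2 points from -0.46 for ATF5 to 0.81 for AADAC.

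How near LX2 with CM272 came to HepG2 was described by the difference LX2 CM272 minus HepG2 control, with no test because the LX2 arrays chose the genes. On the deposited scale the median of all tested genes was higher in LX2 CM272 than in HepG2 control by 0.27 log2, and quantile normalization over the 8 arrays brought that shift to 0.01. The end values are therefore given on both scales. For 4 of 6 genes both LX2 CM272 arrays lay above both HepG2 control arrays (51.6% of all tested genes) and for 2 of 6 both lay below (26.4%).

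PROX1 kept the widest distance. LX2 control lay 4.14 below HepG2 control, a 17.6-fold difference, and LX2 CM272 stood at -3.54 relative to it, 11.6-fold lower (-3.77 after quantile normalization). A difference of 0.60 in LX2 was thus small beside the distance between the lines. BAAT had started 1.09 below HepG2 control and ended at -0.17 (SE 0.16) relative to it. Its LX2 CM272 arrays (5.19 and 5.36) lay just under the HepG2 control arrays (5.45 on both), and after quantile normalization the difference was -0.47.

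AADAC was under the brightness filter on both control arrays of either line, so its distances are not exact. It had started 1.42 below HepG2 control and ended 0.58 (SE 0.19) above it, or 0.33 above it after quantile normalization. Its LX2 CM272 arrays (3.96 and 4.42) overlapped with the HepG2 CM272 arrays (4.27 and 4.55), and the difference between those groups was -0.22 (SE 0.19), or -0.47 after quantile normalization. PC had started 0.30 below HepG2 control (0.56 after quantile normalization) and ended 0.45 (SE 0.15) above it, or 0.22 after quantile normalization. Against HepG2 CM272 it stood at 0.23 on the deposited scale and at -0.03 after quantile normalization, so that this direction depends on the scaling.

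ATF5 read nearly alike in both untreated lines on the deposited scale (HepG2 minus LX2 0.0039, SE 0.16; 0.29 after quantile normalization). With CM272 LX2 stood 0.65 (SE 0.16) above HepG2 control and, as HepG2 read lower with the drug, 1.11 above HepG2 CM272 (0.44 and 0.87 after quantile normalization). CUBN was higher in LX2 control than in HepG2 control by 0.69 (SE 0.17) and ended 2.21 (SE 0.17) above it, a 4.63-fold difference (1.96 log2 after quantile normalization). As CUBN was below the brightness filter on all 4 HepG2 arrays, that fold is not exact.

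**Figure D4:**
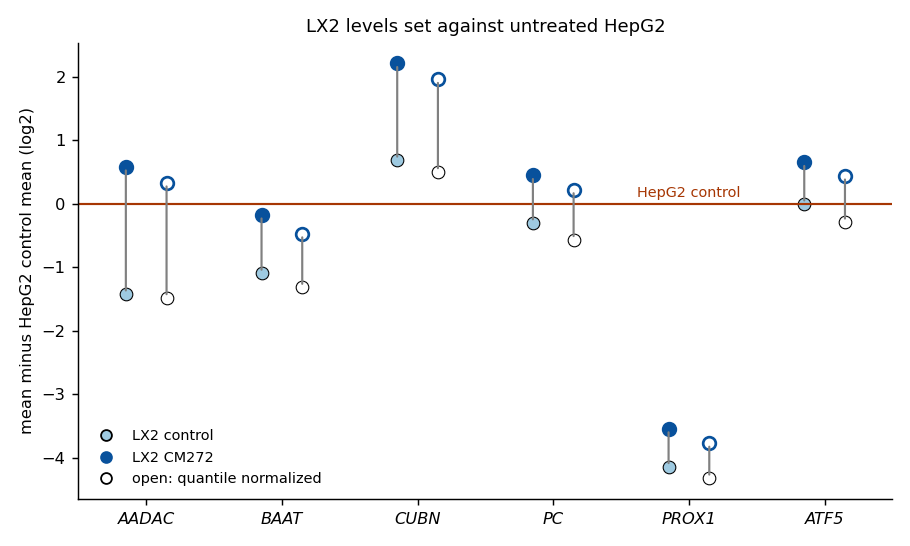
Mean log2 level of LX2 control (light) and LX2 CM272 (dark) minus the HepG2 control mean, which is the line at 0 (filled, deposited values; open, after quantile normalization over 8 arrays; 2 arrays per group). AADAC and PC cross the line, ATF5 (deposited values) starts on it and CUBN above it. BAAT ends under it, at -0.17 (-0.47 after quantile normalization), and PROX1 stays more than 3 log2 below it.

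Few of the other genes of the same functions passed the test in LX2, about as many upward as downward. Of 162 companion genes in 6 lists 85 were measured and 78 tested, and 4 rose and 4 fell in limma (5.13% each, against 3.79% and 4.63% of all tested genes). At an unadjusted p under 0.05 9 were higher and 14 lower, against 10.5% and 14.8% of all tested genes. Their median difference was -0.01, against -0.02 over all genes. In HepG2 none passed limma in either direction (0 of 78; 8 upward and 5 downward had an unadjusted p under 0.05). Leaving out LX2 CM272 replicate 1 gave 3 higher and 4 lower (420 and 406 over all genes), and leaving out replicate 2 gave 8 and 14 (928 and 1568 over all genes). Without LX2 control replicate 1 or 2 there were 2 higher and 0 lower (81 and 16, and 50 and 5, over all genes). With an LX2 array left out, the companion counts thus mostly moved the same way as the counts over all genes. With the filter at log2 6 those higher did not (7 from 4, against 426 from 464 over all genes).

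Hepatocyte transcription factors, the program in which PROX1 and ATF5 act, mostly did not pass in LX2. Of 16 tested 1 fell in LX2, GATA4, a zinc finger factor of endoderm and heart (-0.89, SE 0.15, limma adjusted p = 0.0108), and 0 rose (at an unadjusted p under 0.05, 2 lower and 2 higher). The list median was 0.09, and -0.04 without LX2 CM272 replicate 1. In HepG2 none of the 16 passed (0 called, 3 higher at an unadjusted p under 0.05), and the largest value was that of CREB3L3, a liver factor of the fasting response (1.11, SE 0.19, adjusted p = 0.212). In the untreated lines 12 of the 16 were higher in HepG2 and 3 lower, against 17.7% and 40.5% of all tested genes.

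In bile acid metabolism, the pathway of BAAT, 7 of 27 listed genes were measured, all of them tested. In LX2 0 passed limma, with 1 lower at an unadjusted p under 0.05, and the largest value was that of HSD17B4, a peroxisomal enzyme of side chain shortening (-0.57, SE 0.16, adjusted p = 0.0543). In HepG2 0 passed, with 1 in each direction at an unadjusted p under 0.05, and KLB, the FGF19 co-receptor, had the largest value (0.85, SE 0.21, adjusted p = 0.231).

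Among 12 tested esterases and lipases, the class of AADAC, 1 rose and 1 fell in LX2. AFMID, the formamidase of tryptophan breakdown, rose by 1.46 (SE 0.17, limma adjusted p = 0.00251), from 5.65 ± 0.04 to 7.11 ± 0.25 (SD, n = 2), against 7.48 ± 0.09 in HepG2 control. PON2, a lactonase of the paraoxonase family, fell by 0.80 (SE 0.16, adjusted p = 0.0194 in limma). PNPLA3, a lipid droplet lipase, had the largest HepG2 value (0.73, SE 0.22, adjusted p = 0.308), and 0 of 12 passed there, with 3 higher at an unadjusted p under 0.05.

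The partners of CUBN did not pass limma in LX2, with 0 of 8 tested genes of the cubilin complex and vitamin B12 uptake called and 1 higher at an unadjusted p under 0.05. TCN2, the plasma carrier of vitamin B12, had the largest value (0.43, SE 0.19, adjusted p = 0.192). In HepG2 0 of 8 passed, and 0 at an unadjusted p under 0.05, with ANPEP, an apical peptidase, at 0.41 (adjusted p = 0.468 in limma).

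Of 16 tested genes of pyruvate entry and the other biotin enzymes 2 fell in LX2 and 0 rose, against 5 downward and 0 upward by unadjusted p, and the median was -0.16. HLCS, the ligase that attaches biotin to carboxylases including PC, fell by 0.72 (SE 0.17, limma adjusted p = 0.0358), and so did ACACA, the biotin enzyme of fatty acid synthesis (-0.59, SE 0.14, adjusted p = 0.0334). Fitting LX2 by itself, or dropping 1 of its control arrays, left 0 companion genes lower in limma. In HepG2 0 of 16 passed, with 1 higher at an unadjusted p under 0.05, and MPC2, a subunit of the mitochondrial pyruvate carrier, was at 0.47 (SE 0.21, adjusted p = 0.445 in limma).

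Of 19 other ATF, CREB and C/EBP factors and ATF4 targets, 3 rose in LX2 and 0 fell (15.8% higher, against 3.79% of all tested genes). At an unadjusted p under 0.05 4 were higher and 5 lower, and the median was -0.07. ATF3, a stress-induced factor, rose by 1.76 (SE 0.21, limma adjusted p = 0.0032), DDIT3, also called CHOP, by 0.92 (SE 0.21, adjusted p = 0.0284), and SESN2, a stress-induced regulator of growth signalling, was the other. In HepG2 0 of 19 passed, with 4 lower at an unadjusted p under 0.05, and ATF3 was at -0.58 (SE 0.21, adjusted p = 0.356 in limma).

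**Figure D5:**
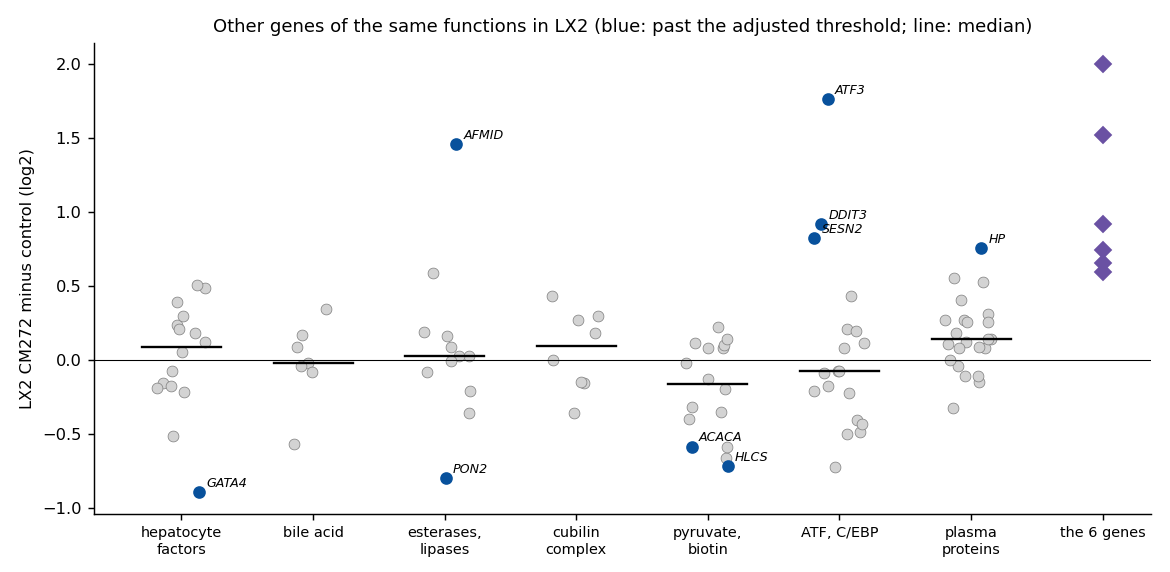
Difference LX2 CM272 minus control (log2) for the tested genes of 6 companion lists and of the hepatocyte plasma proteins (1 point per gene; blue and named, past the limma adjusted threshold of 0.05; line, list median), beside the 6 genes (diamonds), which this difference chose. The list medians lie between -0.16 and 0.14.

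Markers of other cell types are given beside these results, and their part in the LX2 differences was not tested. The 24 measured hepatocyte plasma proteins averaged 4.02 and 4.03 on the LX2 control arrays, 4.12 and 4.30 on the LX2 CM272 arrays, and 10.1 to 10.4 in HepG2. In LX2 CM272 9 of 24 were at or below the brightness filter on both arrays, and ALB read 3.96 and 3.84. Of 23 tested 1 rose in LX2, HP, haptoglobin (0.76, SE 0.19, limma adjusted p = 0.0388), with 5 upward and 1 downward at an unadjusted p under 0.05. HP also had the largest HepG2 value (1.42, SE 0.19, adjusted p = 0.117, where 0 of 23 passed and 4 were higher at an unadjusted p under 0.05). All 23 were higher in HepG2 control than in LX2 control (limma). The plasma protein median in LX2 was 0.14, and -0.0054 without LX2 CM272 replicate 1.

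Of 16 tested epithelial markers 2 rose in LX2 in limma (12.5%, against 3.79% of all tested genes) and 0 fell. The risers were CLDN1, a tight junction protein (1.22, SE 0.24, adjusted p = 0.0194 in limma), and KRT19, a bile duct keratin (0.67, SE 0.15, adjusted p = 0.031). Counted by an unadjusted p under 0.05 in limma, 3 went up and 2 went down. Across these 16 genes the LX2 differences centred on a median of 0.06. Dropping LX2 CM272 replicate 1 made it -0.02, and dropping replicate 2 made it 0.31. EPCAM, a defining epithelial marker, read 3.64 to 3.72 in LX2 control and 3.41 to 4.09 in LX2 CM272. The list mean over 17 measured markers was 5.24 on both LX2 control arrays and 5.31 to 5.49 with CM272. KRT23 had the largest HepG2 value (-1.01, SE 0.25, adjusted p = 0.231 in limma).

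PROX1 marks lymphatic endothelium, and of 13 tested endothelial markers FLT1, a VEGF receptor, rose in LX2 (1.55, SE 0.21, adjusted p = 0.00484 in limma) and 0 fell. On the LX2 CM272 arrays the lymphatic markers PDPN (4.54 to 4.91), LYVE1 (3.66 to 4.18) and FLT4 (4.17 to 4.31) read within 1 log2 of the brightness filter, against 4.55 to 4.68, 3.66 to 3.70 and 3.88 to 4.46 in LX2 control. Of the blood endothelial markers, KDR read 5.69 and 5.72 in LX2 CM272 against 5.18 and 4.99 in control, and did not pass limma. PECAM1 read 4.04 and 3.88 against 3.65 and 3.56, too dim to be tested. The mean over 16 measured endothelial markers was 4.37 to 4.41 in LX2 control and 4.52 to 4.73 in LX2 CM272. The list median was 0.10, and -0.04 without LX2 CM272 replicate 1 and 0.30 without replicate 2. ESAM had the largest HepG2 value (-0.89, SE 0.18, adjusted p = 0.227 in limma).

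Of 10 tested stellate and myofibroblast markers DES, desmin, rose (1.25, SE 0.28, adjusted p = 0.0287 in limma) and LOX, a collagen cross-linker, fell (-1.01, SE 0.15, adjusted p = 0.00637). At an unadjusted p under 0.05 1 was higher and 4 were lower, and the list median was -0.19. VIM read 9.75 and 9.77 in LX2 CM272. The mean of the 13 measured was 6.75 to 6.81 in LX2 control, 6.66 to 6.67 in LX2 CM272 and 5.25 to 5.34 in HepG2. TAGLN had the largest HepG2 value (-0.34, adjusted p = 0.445 in limma). Of 6 tested leukocyte markers CD14 rose in LX2 (1.12, SE 0.18, adjusted p = 0.0102 in limma), with list means of 5.02 to 5.17 in control and 5.14 to 5.39 with CM272, and TYROBP had the largest HepG2 value (-0.52, adjusted p = 0.453).

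The genes whose profile over the 8 arrays was most like each of the 6 were found by the root mean square difference of values centred on each gene's own mean. AADAC was nearest to AFMID (0.35 log2, Pearson r = 0.917 over 8 arrays), then MSX2P1 (0.38) and the antisense RNA SPATA3-AS1 (0.41), which was also the second nearest to BAAT (0.15). BAAT was nearest to CCN2, connective tissue growth factor (0.15, r = 0.952), followed after SPATA3-AS1 by ICAM1, an adhesion molecule (0.16, r = 0.982). CUBN was nearest to GPR50, an orphan receptor (0.14, r = 0.989), BTG4 (0.15) and AMPD1, muscle AMP deaminase (0.20).

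PC lay nearest to the pseudogene KRT18P55 (0.08, r = 0.962), MIR105-1 (0.10) and JUP, plakoglobin (0.11, r = 0.942). PROX1 lay nearest to FAR2P1 (0.12, r = 0.998), RNF43, a ubiquitin ligase of Wnt signalling (0.17), and FOXQ1, a forkhead factor (0.17), all with HepG2 arrays above LX2 arrays. ATF5 lay nearest to PRAMEF15 (0.10, r = 0.970), METTL1 (0.11) and MIR711 (0.12). No gene was among the 3 nearest of more than 2 of the 6.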

How the data were processed

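The 6 genes and all lists were chosen with earlier results of these data known. The authors deposited log2 expression values made with RMA, per the submitters' processing notes (its version is not given in the sources used here). They were used as deposited, from 0.491 to 14.07. RMA gives the arrays a similar spread and pulls dim genes towards each other. Arrays give no counts, so their number limits the precision. Of 48416 probe sets 16098 had 1 symbol and 32318 none, and all 16098 matched a current RefSeq record. For each of 14884 symbols the brightest probe set was kept. Genes over log2 4 on both arrays of at least 1 group were tested (12239).

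One fit of limma 3.58.1 (R 4.3.3) with a mean per group (4 residual and 5.469 prior degrees of freedom) gave all differences. Tests were two-sided, with Benjamini-Hochberg adjustment over 12239 genes and a threshold of 0.05. An exact permutation test of 2 arrays against 2 cannot go below p = 0.333 and was not used. Intervals cover 95%. The fit was also run on simulated data, for the HepG2 difference only and with the same spread in every group. The LX2 CM272 arrays stood further apart than that, so the simulation does not speak to the LX2 calls.

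Named were the 6 genes, up to 2 called genes per list, line and direction (or the largest value where none passed), and the 3 nearest profiles of each gene. Genome neighbours, the defining markers ALB, VIM, EPCAM, PDPN, LYVE1, FLT4, KDR and PECAM1, and SESN2 and C5AR1 were added after values were seen. Neighbours are the nearest measured genes by RefSeq start. Alternatives are given in the closing section. The main fit did not pair arrays by replicate number (correlation of deviations 0.0771 in LX2 and 0.0692 in HepG2). Whether arrays of the same number were handled together is not in the labels. Figures were drawn with matplotlib 3.10.9.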

Additional observations from a re-analysis of the deposited data

Results flagged for a closer look

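PROX1 and ATF5 were higher on both LX2 CM272 arrays and lower on both HepG2 CM272 arrays than their controls. The HepG2 change less the LX2 change was -0.75 (SE 0.23) for PROX1 and -1.12 (SE 0.23) for ATF5. These differences were not tested, because the LX2 arrays chose the genes.

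Among the genes named from the companion and marker lists, 5 passed limma for a difference of the CM272 change between the lines. All 5 were named because they had passed in LX2. The LX2 values that chose them thus enter these p-values, which are description only. The unnamed genes of the lists were not counted. ATF3 differed by -2.35 (SE 0.30, adjusted p = 0.00915), from 1.76 in LX2 to -0.58 in HepG2. CLDN1 differed by -1.84 (SE 0.34, adjusted p = 0.0408), from 1.22 to -0.62. AFMID differed by -1.22 (SE 0.23, adjusted p = 0.0437), from 1.46 to 0.24. LOX differed by 1.17 (SE 0.21, adjusted p = 0.0367), from -1.01 to 0.16. GATA4 differed by 1.13 (SE 0.21, adjusted p = 0.0396), from -0.89 to 0.24. Over all tested genes limma called 145 such differences (1.18%). The 5 are not a share of the lists, so they are not set against it.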

How the results depend on the processing

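Of 17 alternatives, 8 left out an array. In HepG2 none of the 6 genes passed under any of the others (0 in each), and with the filter at log2 6 only PC, PROX1 and ATF5 were tested. None of the companion genes passed there in either direction (0 in each). Over all genes these alternatives called 0 to 1 higher and 0 to 5 lower in HepG2, so that 0 is the usual outcome. BAAT and CUBN changed sign in HepG2 with 1 CM272 array left out: BAAT ran from -0.10 (without replicate 1) to 0.26, and CUBN from -0.079 (without replicate 2) to 0.20. The median of the 6 in LX2 was 0.66 with the filter at log2 6, where only PC, PROX1 and ATF5 remained, and 0.83 to 0.89 with an array left out. The median difference between LX2 CM272 and HepG2 control was 0.28 with quantile normalization and 0.45 to 0.53 with an array left out. The companion genes higher in LX2 numbered 7 with the filter at log2 6 (426 over all genes) and 2 with array weights (139 over all genes). The main fit gave 4 (464 over all genes). Those lower numbered 8 with the filter at log2 6, 9 with a mean-variance trend, 1 with array weights, 0 with each line fitted alone, and 0 to 14 with an array left out. The cause was not tested. With the replicate block within each line, 4 companion genes were higher and 3 lower in LX2 and 0 of the 6 genes passed in HepG2. Over all genes, 30.4% of the calls between the untreated lines were higher in HepG2, and 47.3% after quantile normalization. Where an array was left out, the lone array was assumed to vary like the other groups. AADAC in LX2 control and CUBN in HepG2 lie at the dim end, where folds are compressed.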
